A study of Mus musculus with 12 samples.

Results

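A group of 10 genes was followed in sorted epithelium of the mouse prostate: the basal-cell factor p63 (Trp63), the zinc-finger repressors Slug (Snai2), Snail (Snai1), Zeb1 and Zeb2, the helix-loop-helix factor Twist1, the zinc-finger factor Bcl11b, the cell adhesion proteins E-cadherin (Cdh1) and P-cadherin (Cdh3), and the intermediate filament protein vimentin (Vim). They were taken by gene symbol and made up 10 of the 18193 genes that had a probe set with a single symbol. Of 34945 such probe sets 27 belonged to them, and each gene is represented by its probe set of highest mean log2(signal + 16) over the 12 arrays. All 10 genes passed the filter on low signal, which asked for a value above the 40th percentile of its array on at least 3 arrays and kept 14645 genes. Cdh1, Cdh3 and Vim exceeded that percentile on all 12 arrays, Zeb1 on 11, Trp63 on 10, Snai2 and Zeb2 on 9, Bcl11b on 8, Twist1 on 5 and Snai1 on 3.

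RNA came from adult C57BL/6 males with no transgene named in the labels, castrated by surgery at 8 weeks of age or kept intact, and killed 4 weeks later. EpCAM-positive cells lacking lineage antigens were divided by flow sorting into luminal cells, low in the integrin CD49f, and basal cells, high in it. The 4 groups (intact basal, castrated basal, intact luminal, castrated luminal) held 3 arrays each, labelled as biological replicates 1 to 3. The labels do not say whether a replicate was a single mouse or a pool, and the p-values measure only the spread between these samples. Sorted cells are still bulk samples, in which fewer cells of a type and less RNA per cell cannot be told apart.

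p63 is the master transcription factor of basal cells in stratified and pseudostratified epithelia, and mice without it form no normal prostate. Snail, Slug, Zeb and Twist proteins bind E-box motifs or partner with factors that do, and repress E-cadherin and other junction genes during the epithelial-mesenchymal transition, in which epithelial cells loosen their contacts and gain vimentin. Slug is also a normal resident of basal cells in glands such as the breast, where it does not by itself mean a transition. P-cadherin is the classical cadherin of basal layers, and Bcl11b is known from T cells, skin and breast epithelium.

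The sort labels were checked against marker lists. All 10 basal markers were lower in luminal than in basal arrays in intact and in castrated mice. Among them is Itga6, which encodes CD49f, the protein used for the sort. In intact and again in castrated mice 7 of 9 luminal markers were higher and 1 was lower, the pioneer factor Foxa1. Krt18 counted as higher in intact mice only, and Hoxb13 in castrated mice only. The summed signal of the 10 basal markers was 93207 to 112523 on intact basal arrays and 8021 to 12377 on intact luminal arrays. Median signals ran from 78.8 to 99.9 on intact and from 57.7 to 73.9 on castrated arrays, without overlap. The 40th percentiles ran from 46.8 to 61.1 on intact and from 33.3 to 44.9 on castrated arrays. The low end of the signals thus lay lower on every castrated array, which bears on castration differences of dim genes. Replicate 3 had the lowest precision weight within each of the 4 groups. Its weights were 0.363 for intact luminal, 0.434 for castrated basal, 0.504 for intact basal and 1.81 for castrated luminal.

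RefSeq promoter sequences (GRCm38.p6, 250 bases before to 50 bases after a start site) were at hand for 5 of the 10 genes (Vim, Zeb2, Snai1, Twist1 and Bcl11b), as 8 promoters. They were searched for CACCTG or CAGGTG, the E-box read by Snail, Slug and Zeb factors, each being the other strand of the same site. It was found in Snai1 alone, 126 bases before the start, while 20.2% of the 32851 promoters of the table held it. Both sequences below end at the base before the start site. Snai1 is shown for that E-box, in capitals, and Vim because it had the largest castration difference of the 10 genes in luminal cells, with its TATA motif (TATAAA or TTTATA, in 13.6% of promoters) in capitals 32 bases before the start. These are matches of letters and no binding was measured.
Snai1, chr2:167538045-167538194, plus strand: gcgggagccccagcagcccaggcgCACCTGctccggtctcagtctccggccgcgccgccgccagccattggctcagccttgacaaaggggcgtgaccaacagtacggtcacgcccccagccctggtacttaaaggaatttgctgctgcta
Vim, chr2:13574161-13574310, plus strand: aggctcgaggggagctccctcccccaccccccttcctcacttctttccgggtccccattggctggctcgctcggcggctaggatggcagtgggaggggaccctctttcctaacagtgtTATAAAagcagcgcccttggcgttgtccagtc

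Across the 4 groups, Trp63, Snai2 and Cdh3 were basal genes, Cdh1 was high in every group, and Vim had the largest fall after castration in luminal cells. In intact mice 3 of the 10 genes (Trp63, Snai2, Cdh3) were lower in luminal than in basal cells and 0 were higher (limma, adjusted p below 0.05), where 19.5% of all genes tested passed and 8.45% were lower. Their median log2 difference was -0.68, against 0.07 over all genes. In castrated mice Trp63, Snai2 and Cdh3 again were lower and 0 higher, with 18.4% of all genes passing (11.2% higher, 7.22% lower) and a median of -0.42 against 0.08. Castration raised 1 of the 10 genes in luminal cells (Cdh1) and lowered 2 (Trp63 and Vim), where 5.86% of all genes passed, 2.90% rising and 2.96% falling. The median was -0.59, against -0.09 over all genes. In basal cells 0 of the 10 genes passed after castration, 4 had an unadjusted p below 0.05 (Cdh1, Zeb1, Vim and Twist1), and 2.62% of all genes passed, 1.12% rising and 1.50% falling. The median there was -0.80, against -0.11 over all genes. Centring arrays on their medians moved the median of all genes to 0.12 in luminal and 0.19 in basal cells after castration, and reversed the direction of none of the 10 genes' differences. The difference between the luminal and the basal castration effect passed for 0 of the 10 genes, with Trp63 and Zeb1 at an unadjusted p below 0.05 and 1.15% of all genes passing.

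**Figure D1:**
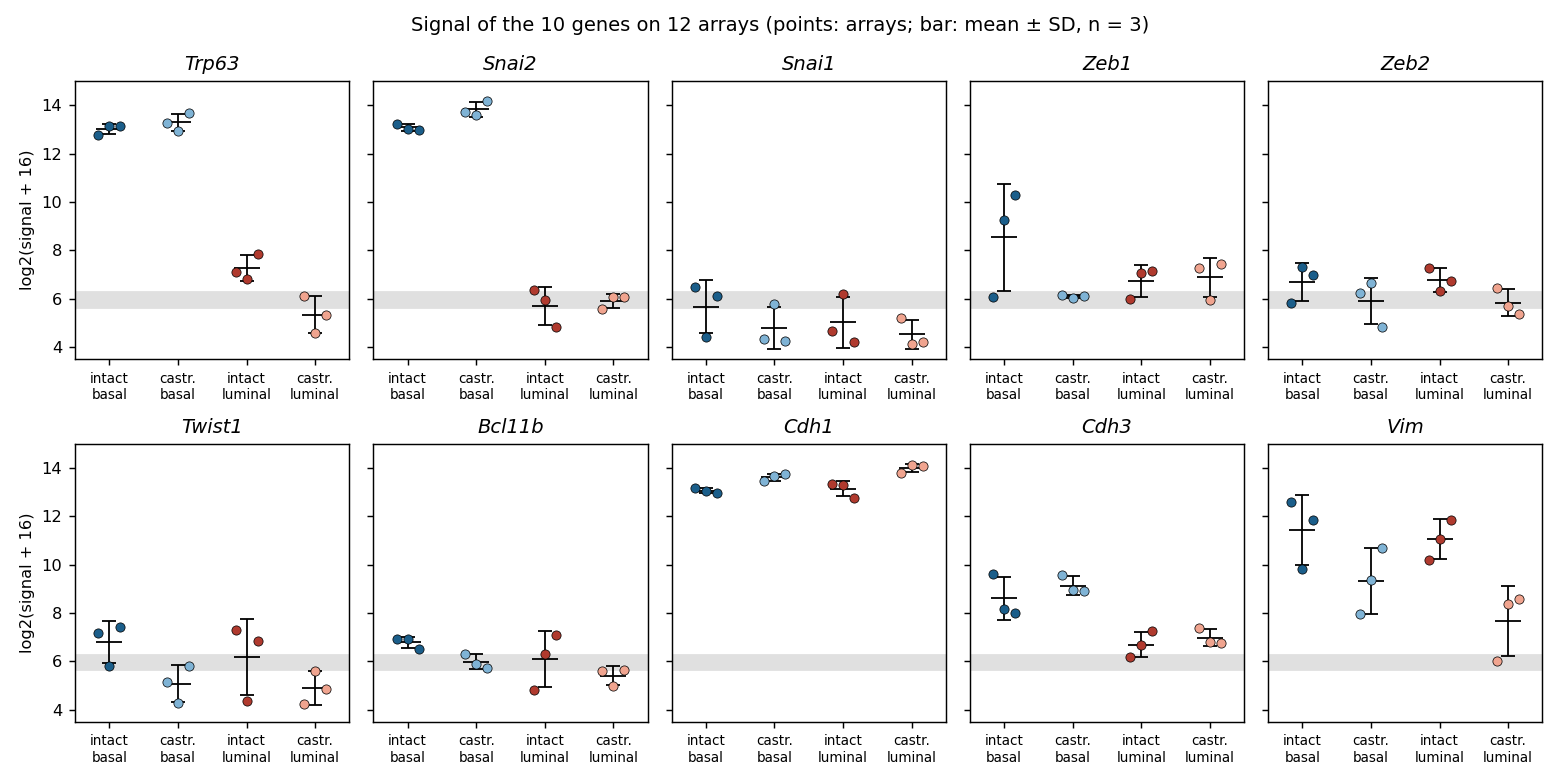
Each panel plots log2(signal + 16) of 1 gene on the 12 arrays by group, with points for arrays and bars for the mean ± SD (n = 3). The grey band spans the 40th percentiles of the arrays (signal 33.3 to 61.1); Trp63 and Snai2 lie far above it in basal cells and near it in luminal cells, and Cdh1 lies far above it throughout.

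Trp63 (chromosome 16:25683763-25892088, GRCm38.p6) was strongly expressed in basal cells. Its signals were 7017, 8969 and 9052 on the intact basal arrays of replicates 1, 2 and 3, and 9737, 7836 and 12963 on the castrated basal arrays. On intact luminal arrays they were 119, 97.4 and 216, and on castrated luminal arrays 53.4, 7.78 and 23.7. All basal values lay above all luminal values, the basal groups overlapped, and the castrated luminal values lay below every intact luminal value. Luminal cells were lower by a log2 difference of -5.76 ± 0.43 (SE, adjusted p = 1.01e-07) in intact mice and -7.95 ± 0.43 (adjusted p = 4.23e-09) in castrated mice. The mean luminal signal was 1.73% of the basal mean in intact and at most 0.278% in castrated mice, where it lay near the floor.

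Castration lowered Trp63 in luminal cells by a log2 difference of -1.92 ± 0.43 (95% interval -2.83 to -1.01, adjusted p = 0.0121). In basal cells the difference was 0.26 ± 0.43 (interval -0.64 to 1.17, adjusted p = 0.805). The difference between the effects was -2.19 ± 0.61 and did not pass (adjusted p = 0.104). The castrated luminal signals lay near the floor of the arrays, while the intact luminal ones exceeded the 40th percentile on all 3 arrays. The size of the luminal change moved with the added constant, from -2.59 with 1 added to -1.16 with 64 added. Without castrated luminal replicate 2 it was -1.54 (adjusted p = 0.0706), and without intact luminal replicate 3 it was -1.62 (adjusted p = 0.0516).

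Of the 3 other Trp63 probe sets, 1418158_at and 1451876_a_at repeated the cell type difference, and for none of the 3 did the luminal castration difference pass. Probe set 1418158_at gave basal signals of 3840 to 9267 and luminal signals of 23.2 to 110.5, and 1451876_a_at gave 508 to 1749 and 3.81 to 43.5. Tested singly among 27554 kept probe sets, these differed between luminal and basal cells of intact mice by -6.40 ± 0.47 and -6.15 ± 0.59. Their luminal castration differences were -0.62 ± 0.47 (adjusted p = 0.530) and 0.58 ± 0.59 (adjusted p = 0.651). Probe set 1459581_at did not pass between cell types, at -0.48 ± 0.62 in intact (adjusted p = 0.682) and -1.63 ± 0.62 in castrated mice (adjusted p = 0.107), and its luminal castration difference was -0.95 ± 0.62 (adjusted p = 0.480). The fall of Trp63 therefore rests on 1452027_a_at, and with the mean of the kept probe sets it was -0.73 (adjusted p = 0.313).

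Of the 10 basal cell markers, 2 passed as higher in luminal cells after castration, 0 as lower, and the median over the 10 was -0.11. Krt17, a keratin of basal and stressed epithelium, rose by 1.89 ± 0.42 (adjusted p = 0.0110), and the water and glycerol channel Aqp3 rose by 3.44 ± 0.56 (adjusted p = 0.00131), from a mean signal of 17.6 to 368. Krt5 and Krt14, the keratin pair of basal cells, differed by -1.77 ± 0.68 (adjusted p = 0.150) and -0.63 ± 0.48 (adjusted p = 0.524). The summed signal of the 10 markers was 8021 to 12377 on intact and 11219 to 12670 on castrated luminal arrays, with 3 to 5 and 2 of them at or under the 40th percentile. Most of that sum came from Krt15, with means of 6164 and 5350, and Itga6, with means of 3388 and 5137, and the other 8 markers summed to 836 to 1228 on intact and 1110 to 1736 on castrated luminal arrays. The part of basal cells in the luminal Trp63 signal was not tested.

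**Figure D2:**
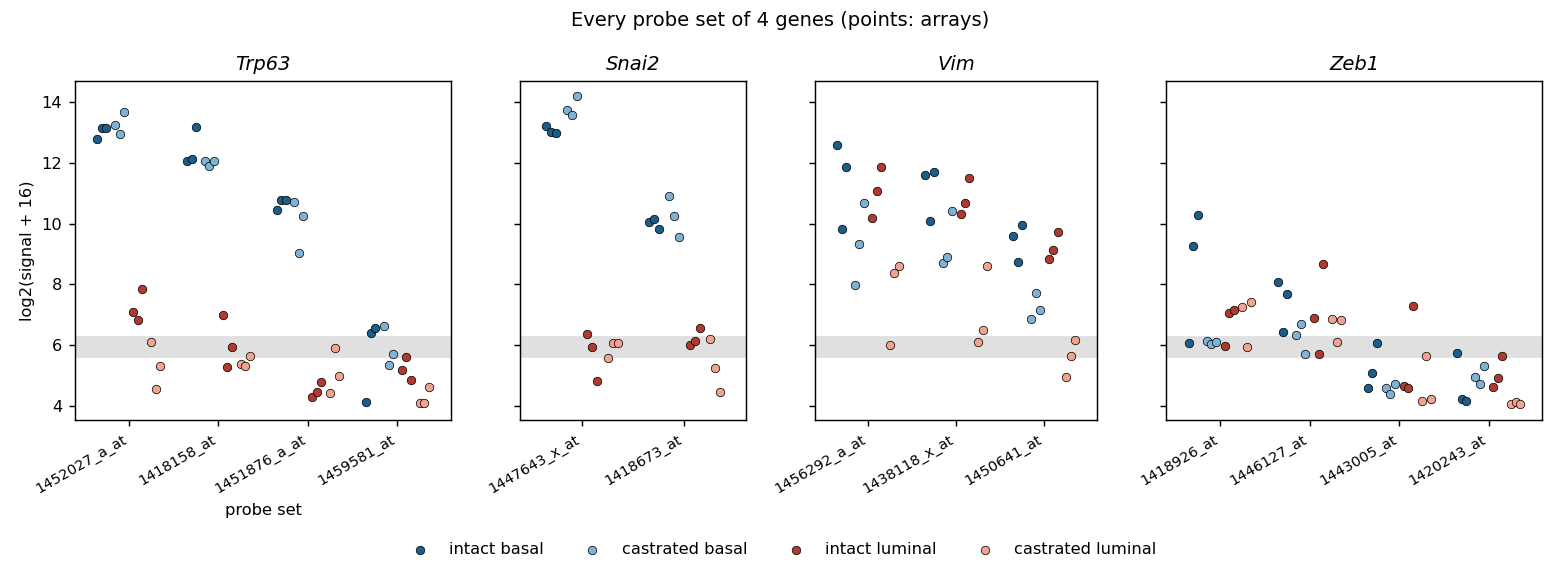
Points give log2(signal + 16) on each array for every probe set of Trp63, Snai2, Vim and Zeb1, coloured by group, with the grey band at the 40th percentiles of the arrays. The basal and luminal arrays part in 3 of 4 Trp63 probe sets and in both of Snai2. Castrated luminal arrays lie below intact luminal arrays in all 3 Vim probe sets. The intact basal Zeb1 values of 595 and 1223 belong to 1418926_at. Zeb1 probe set 1446127_at reached 189 and 255 on intact basal arrays, against at most 87.7 on castrated basal and 390 on intact luminal arrays.

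Snai2 (chromosome 16:14705852-14709395) encodes Slug and was strongly expressed in basal cells. Its basal signals were 9573, 8295 and 8120 in intact and 13530, 12204 and 18646 in castrated mice. Luminal signals were 65.8, 45.1 and 12.1 in intact and 31.5, 50.7 and 51.0 in castrated mice, above the 40th percentile on 3 of these arrays. The luminal groups overlapped, while the castrated basal arrays all lay above the intact basal arrays. Luminal cells were lower by -7.38 ± 0.41 in intact mice (adjusted p = 1.53e-08) and by -7.93 ± 0.41 in castrated mice (adjusted p = 3.17e-09). The luminal mean was at most 0.473% and 0.300% of the basal mean, upper limits since luminal signals lay near the floor.

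Castration gave a Snai2 difference of 0.75 ± 0.41 in basal cells (interval -0.12 to 1.63, adjusted p = 0.364) and 0.20 ± 0.41 in luminal cells (interval -0.68 to 1.07, adjusted p = 0.849). Neither passed, although the basal groups did not overlap. The probe set used, 1447643_x_at, is of the class in which some probes can also match other sequences. The second Snai2 probe set, 1418673_at, had basal signals of 736 to 1910.5 and luminal signals of 6.23 to 78.4. It gave -3.77 ± 0.56 and -4.94 ± 0.56 for luminal against basal cells in intact and castrated mice. Its castration differences were 0.23 ± 0.56 in basal and -0.94 ± 0.56 in luminal cells, neither past the threshold.

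Snai1 (chromosome 2:167538195-167542814), the other Snail-family repressor, was near the floor in all groups. Its signals were 73.4, 5.46 and 52.4 on intact basal, 4.07, 38.8 and 2.81 on castrated basal, 9.41, 57.4 and 2.19 on intact luminal, and 20.8, 1.46 and 2.64 on castrated luminal arrays. Every pair of groups overlapped and none of the 5 comparisons passed, with adjusted p from 0.543 to 0.915. Signals this near the floor are noisy, and no difference was shown.

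Zeb1 (on chromosome 18), a zinc-finger repressor of E-cadherin, was uneven among the intact basal arrays. Its signals there were 50.9, 595 and 1223, against 54.9, 49.1 and 52.9 on castrated basal arrays. Luminal signals were 47.0, 117 and 126 in intact and 139, 45.8 and 156 in castrated mice. Intact basal replicate 1 lay among the castrated basal values, so the groups overlapped. The castration difference in basal cells was -2.44 ± 0.85 (interval -4.23 to -0.65) and did not pass (adjusted p = 0.136). Without intact basal replicate 1 it was -3.67 and passed (adjusted p = 0.0133), and the luminal against basal difference in intact mice then was -3.04 (adjusted p = 0.00620), against -1.80 ± 0.85 (adjusted p = 0.156) with all arrays. The other kept Zeb1 probe sets gave -1.15 ± 0.74 and -0.68 ± 0.65 for castration in basal cells, neither past the threshold.

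Zeb2 (chromosome 2:44983512-45117442), its close relative, had signals of 40.6, 144 and 109 on intact basal and 59.0, 83.5 and 12.6 on castrated basal arrays. On luminal arrays they were 138, 62.6 and 91.5 in intact and 71.5, 36.1 and 24.6 in castrated mice. Castrated arrays ran lower with overlap in both cell types. The castration differences were -0.94 ± 0.65 in luminal (adjusted p = 0.468) and -0.80 ± 0.65 in basal cells (adjusted p = 0.564).

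Twist1 (chromosome 12:33957671-33959831) had signals of 128, 39.6 and 154 on intact basal arrays and 19.5, 3.60 and 39.3 on castrated basal arrays, so that the nearest arrays of the groups lay at 39.6 and 39.3. Intact luminal arrays gave 139, 4.59 and 100.1, and castrated luminal arrays 2.63, 32.3 and 13.3. The castration differences were -1.71 ± 0.76 in basal (interval -3.32 to -0.11, adjusted p = 0.244) and -1.27 ± 0.76 in luminal cells (adjusted p = 0.390), and neither passed.

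Bcl11b (chromosome 12:107910403-108004145) was dim. Its signals were 107, 104 and 75.0 on intact basal, 63.7, 44.0 and 36.5 on castrated basal, 12.3, 63.05 and 122 on intact luminal and 32.8, 15.1 and 34.4 on castrated luminal arrays. The basal groups did not overlap, yet the castration difference of -0.81 ± 0.62 did not pass (adjusted p = 0.539). The 4 Bcl11b probe sets disagreed in basal cells, with differences of 1.36, 0.04, -1.20 and -0.81. T cells are known to use Bcl11b, and the lymphocyte list held T and B cell markers together. Its summed signals over 8 genes were 530 to 1054 on intact basal, 218 to 748 on castrated basal, 284 to 651 on intact luminal and 177 to 245 on castrated luminal arrays. The B cell marker Cd79a had means of 347, 144, 55.8 and 10.2 in these groups. The T cell markers that passed the filter did not move alike. In the same order, Cd4 had means of 134, 24.0, 61.0 and 10.6, and Cd8a 123, 87.2, 103 and 44.5. Cd3e had 28.3, 28.9, 64.8 and 19.6, and Cd2 had 7.08, 53.6, 86.6 and 61.1. The part of T cells in the Bcl11b signal was not tested.

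Cdh1 (chromosome 8:106603350-106670247) encodes E-cadherin, which holds epithelial cells together at adherens junctions and is the best known target of Snail and Zeb repressors. It was high in both cell types, and its signals were 9105, 8471 and 8018 on intact basal and 10325, 9995 and 6987 on intact luminal arrays. In castrated mice they were 11280, 12862 and 13554 on basal and 14198, 17887 and 17320 on luminal arrays. The intact groups overlapped, and luminal and basal cells of intact mice differed by 0.07 ± 0.18 (interval -0.31 to 0.45, adjusted p = 0.829). Snai2 differed by -7.38 between the same cells, and an effect of Slug on Cdh1 was not tested.

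In both cell types every castrated array lay above every intact array for Cdh1. The rise in luminal cells was 0.87 ± 0.18 (1.83-fold, interval 0.49 to 1.25, adjusted p = 0.00703). It passed with each of the 12 arrays left out in turn, with a highest adjusted p of 0.0487, but not without an intensity trend (adjusted p = 0.136) or without all replicate 3 arrays (0.65, adjusted p = 0.0563). In basal cells the difference was 0.56 ± 0.18 (interval 0.18 to 0.93) and did not pass (adjusted p = 0.109). It passed with arrays centred on their medians (0.86, adjusted p = 0.0387) and without intact luminal replicate 3 (0.56, adjusted p = 0.0427). The effects in luminal and basal cells differed by 0.31 ± 0.25 (interval -0.22 to 0.85, adjusted p = 0.666). In castrated mice luminal arrays all lay above basal arrays, with a difference of 0.39 ± 0.18 (adjusted p = 0.154), which became 0.86 and passed with quantile normalization (adjusted p = 0.00184).

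Cdh3 (chromosome 8:106510852-106556911) encodes P-cadherin, and its gene lies 46438 bases before Cdh1 on the same chromosome. Its signals were 776, 272 and 242 on intact basal and 746, 474 and 459 on castrated basal arrays. Luminal signals were 55.8, 86.8 and 135 in intact and 150, 96.4 and 91.5 in castrated mice. All basal values lay above all luminal values, and the castrated and intact arrays of each cell type overlapped. Luminal cells were lower by -1.91 ± 0.56 in intact (adjusted p = 0.0241) and -2.16 ± 0.56 in castrated mice (adjusted p = 0.0122), the mean luminal signal being 21.5% and 20.1% of the basal mean. After castration the differences were 0.28 ± 0.56 in luminal and 0.53 ± 0.56 in basal cells (adjusted p = 0.841 and 0.682).

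The Cdh3 difference between cell types depended on single arrays. In intact mice it was -1.40 without intact basal replicate 1 (adjusted p = 0.121), -1.64 without intact luminal replicate 1 (adjusted p = 0.0892) and -1.90 without intact luminal replicate 2 (adjusted p = 0.0586). In castrated mice the adjusted p was 0.0507 without castrated basal replicate 1, 0.0522 without castrated luminal replicate 2 and 0.0543 without castrated luminal replicate 3. The second Cdh3 probe set, 1441255_at, passed in castrated mice (-2.58 ± 0.84, adjusted p = 0.0444 over probe sets) and not in intact mice (-0.35 ± 0.84).

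**Figure D3:**
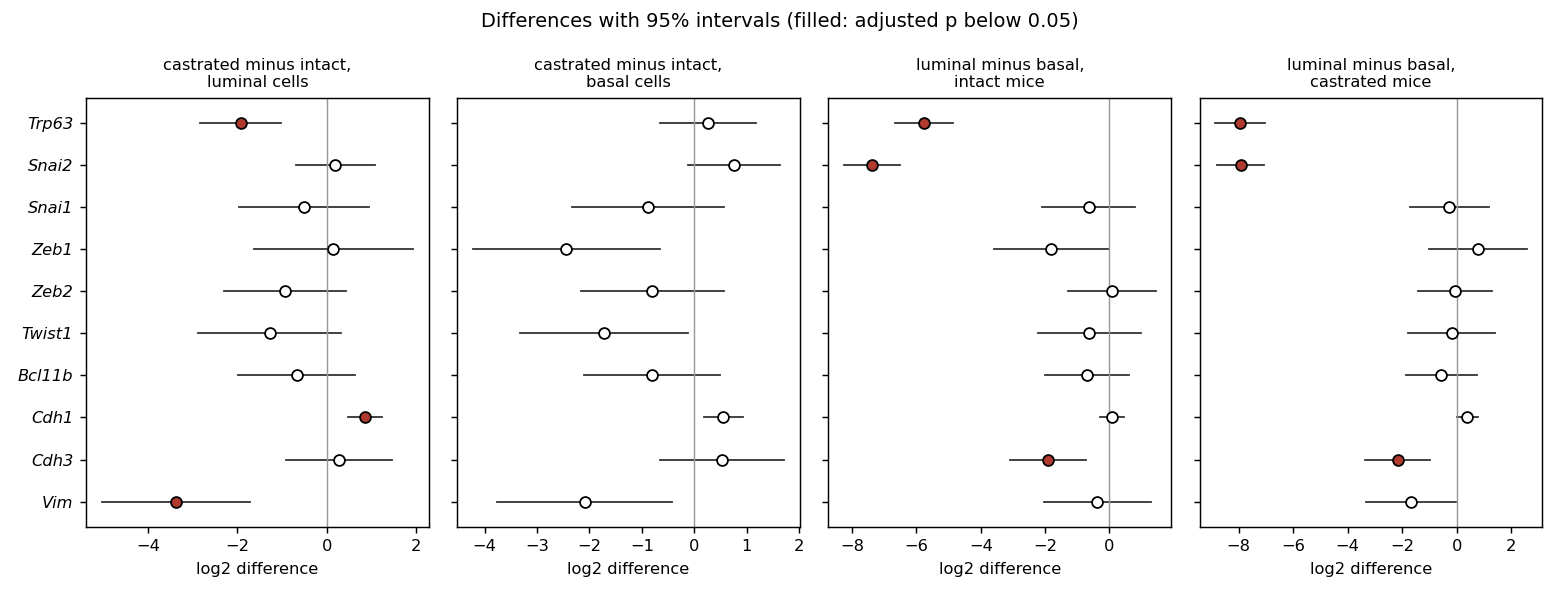
Points are log2 differences of the 10 genes in 4 comparisons, lines are 95% intervals, filled points passed an adjusted p of 0.05, and the panels have their own log2 scales. Trp63, Snai2 and Cdh3 are filled to the left of 0 in both cell type panels, and Trp63, Cdh1 and Vim are filled in the luminal castration panel.

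Vim (chromosome 2:13574311-13582826) encodes vimentin, the intermediate filament of fibroblasts, endothelium, leukocytes and epithelial cells that have turned mesenchymal. Its signals were 6200, 891 and 3692 on intact basal and 1162, 2120 and 3710 on intact luminal arrays. They were 235, 634 and 1636 on castrated basal and 48.2, 319 and 370 on castrated luminal arrays. Every castrated luminal array lay below every intact luminal array, and the basal groups overlapped. The fall in luminal cells was -3.38 ± 0.79 (10.4-fold on the log2(signal + 16) scale, interval -5.04 to -1.72, adjusted p = 0.0157).

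In basal cells the Vim difference was -2.09 ± 0.79 (interval -3.76 to -0.43) and did not pass (adjusted p = 0.172). The luminal and basal effects differed by -1.29 ± 1.11 (adjusted p = 0.694), so a larger fall in luminal cells was not shown. Luminal and basal cells differed by -0.39 ± 0.79 in intact mice (adjusted p = 0.794) and -1.67 ± 0.79 in castrated mice (adjusted p = 0.160). The luminal fall was -2.55 without castrated luminal replicate 1 (adjusted p = 0.0937) and -2.97 without intact luminal replicate 3 (adjusted p = 0.0796), and it did not pass without an intensity trend (adjusted p = 0.0670).

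The other Vim probe sets fell in luminal cells as well. Probe set 1438118_x_at had signals of 1255 to 2906 on intact and 52.4 to 377 on castrated luminal arrays, a difference of -3.76 ± 0.62 (adjusted p = 0.00178 over probe sets). Probe set 1450641_at had 438 to 840 and 15.1 to 56.7, a difference of -3.64 ± 0.56 (adjusted p = 0.000663). In basal cells 1450641_at passed at -2.19 ± 0.56 (adjusted p = 0.0468) and 1438118_x_at did not at -1.78 ± 0.62 (adjusted p = 0.156). Luminal cells of castrated mice were lower than basal cells on both, by -2.28 ± 0.62 on 1438118_x_at (adjusted p = 0.0203) and -1.64 ± 0.56 on 1450641_at (adjusted p = 0.0497), unlike on the main probe set. In intact mice these differences were -0.30 ± 0.62 and -0.19 ± 0.56 and did not pass.

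Fibroblast markers fell beside Vim in the same arrays. Of 12 markers, 7 fell in luminal cells after castration and 0 rose, with a median difference of -3.03. In basal cells 4 fell and 0 rose, with a median of -1.77. Their summed signal was 8041 to 14527 on intact luminal and 809 to 997 on castrated luminal arrays, where 6 to 8 of the 12 were at or under the 40th percentile, Col1a1, Sparc, Thy1, Pdgfra and Pdgfrb on all 3 arrays. On basal arrays the sum was 41216 to 51778 in intact and 24259 to 29757 in castrated mice, with 0 to 1 and 2 to 4 markers that dim. Dcn, a matrix proteoglycan, made up much of it, with means of 21080 and 22092, and the other 11 markers summed to 20488 to 29096 in intact and 4074 to 4963 in castrated mice. Sparc, a matrix protein of fibroblasts, averaged 2415 on intact and 19.1 on castrated luminal arrays. Smooth muscle markers summed over 8 genes to 943 to 3478 on intact and 539 to 635 on castrated luminal arrays, and endothelial markers over 8 genes to 416 to 1358 and 156 to 347. Myeloid markers summed over 10 genes to 711 to 1293 and 861 to 1022. On basal arrays the smooth muscle sum was 4268 to 5868 in intact and 4787 to 8081 in castrated mice. The endothelial sum there was 757 to 1230 and 422 to 499, and the myeloid sum was higher after castration, at 1019 to 2081 and 2013 to 2652. The part of these cell types in the Vim difference was not tested.

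**Figure D4:**
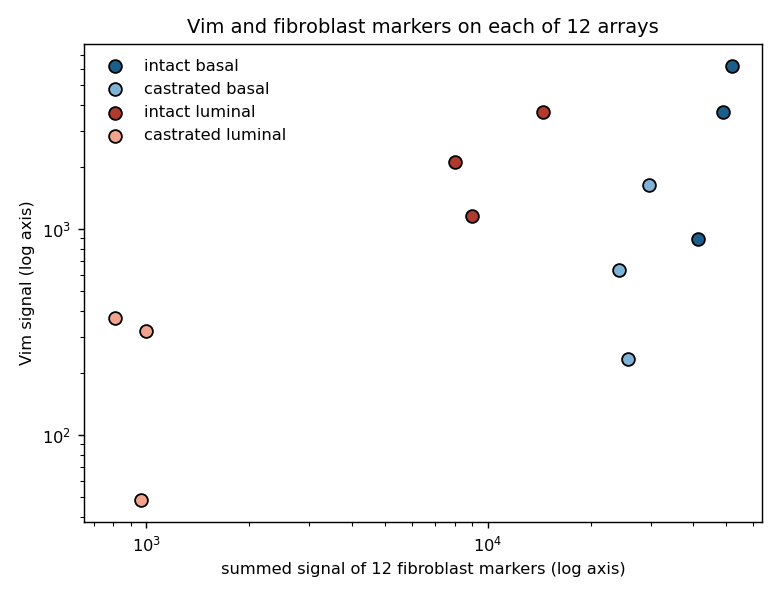
Each point is 1 array, with the summed signal of 12 fibroblast markers on the x axis and the Vim signal on the y axis, both on log scales, coloured by group. Castrated luminal arrays sit alone at marker sums of 809 to 997 with Vim at 48.2 to 370, and no line or coefficient was fitted.

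Other genes of the pathway were read in 7 lists, none of which holds the 10 genes, and their counts and medians stand beside the shares and medians of all genes given above. Among 21 measured p63 relatives and described p63 targets, 18 were lower and 1 was higher in luminal than in basal cells of intact mice, with a median of -2.45. Itga6, Itgb4, Krt5 and Krt14 of that list are also basal markers, and Itga6 encodes CD49f, the protein used for sorting. The keratin Krt14 was lower by -7.02 ± 0.48, the hemidesmosome collagen Col17a1 by -6.43 ± 0.58, the adaptor Sfn by -3.47 ± 0.31 and the cell cycle inhibitor Cdkn1a by -2.61 ± 0.19 (all with adjusted p at or below 9.78e-07). In castrated mice 19 were lower and 1 higher, with a median of -2.21. The higher gene in both was Satb1, a chromatin organiser, at 1.86 ± 0.39 and 1.39 ± 0.39.

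After castration, in luminal cells 3 of the 21 p63-list genes rose and 0 fell, with a median of -0.08 against -0.09 over all genes, while Trp63 itself fell on its main probe set. The adhesion protein gene Nectin1 rose by 1.88 ± 0.48 (adjusted p = 0.0253) and the factor Tfap2c by 1.28 ± 0.29 (adjusted p = 0.0136). Leaving out a single luminal array ended the Nectin1 call in 5 cases (castrated replicates 1, 2 and 3, intact replicates 1 and 3, adjusted p up to 0.115). For Tfap2c it did so in 2 cases (castrated replicate 3 and intact replicate 2, up to 0.100). In basal cells 0 of 21 passed, with a median of 0.15.

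Among 13 other factors described as promoting the transition, 4 were lower and 0 higher in luminal cells of intact mice, with a median of -0.42. These were the ETS factor Ets1 (-4.81 ± 0.37), the Twist1 relative Twist2 (-3.21 ± 0.67), the forkhead factor Foxc1 (-2.46 ± 0.55) and the helix-loop-helix inhibitor Id2 (-1.34 ± 0.29). In castrated mice 5 were lower, with a median of -0.99. Castration raised 3 of the 13 in luminal cells and lowered 0, with a median of -0.03, and 0 passed in basal cells.

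Ets1 had the largest rise of those in luminal cells. Its signals were 149, 113 and 88.6 on intact luminal arrays and 1103, 1225 and 1978 on castrated luminal arrays, a difference of 3.43 ± 0.37 (adjusted p = 2.58e-05). Basal arrays gave 3245 to 4289 in intact and 3850 to 9156 in castrated mice and overlapped, with a difference of 0.64 ± 0.37 (adjusted p = 0.385). Sox9, a factor of ducts and progenitors, rose by 0.95 ± 0.17 in luminal cells (adjusted p = 0.00285). The Sox9 call was lost in 2 of 25 alternative fits (adjusted p up to 0.177).

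Among 15 factors that hold the epithelial state, luminal cells of intact mice were higher in 4 and lower in 4, with a median of 0.17. Elf5, an ETS factor of glandular epithelium, was higher by 5.50 ± 0.59, and Ovol1 (-2.69 ± 0.40), Klf5 (-1.34 ± 0.29) and Foxa1 (-1.28 ± 0.23) were lower. In castrated mice 3 were higher and 2 lower, with a median of 0.69. Castration raised 2 of the 15 in luminal cells and lowered 0 (median 0.04), and lowered 1 in basal cells and raised 0 (median -0.09).

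Ovol1, a zinc-finger repressor of Zeb1 and other transition genes, moved in opposite directions. Its signals were 3023, 2380 and 4358 on intact basal and 824, 1081 and 811 on castrated basal arrays, a fall of -1.79 ± 0.40 (adjusted p = 0.0274). They were 392, 906 and 299 on intact luminal and 1193, 1501 and 1801 on castrated luminal arrays, a rise of 1.61 ± 0.40 (adjusted p = 0.0233). Neither pair of groups overlapped. Leaving out 1 array ended the basal call for any of the 3 castrated basal arrays and for intact basal replicates 1 and 3 (adjusted p up to 0.0906). It ended the luminal call for any of the 3 castrated luminal arrays and for intact luminal replicates 1 and 3 (adjusted p up to 0.124). Klf5 rose in luminal cells by 1.11 ± 0.29 (adjusted p = 0.0300) on its main probe set, a call that was lost without any of the 3 castrated luminal arrays or intact luminal replicate 3 (adjusted p up to 0.119), and with the mean of its probe sets the difference was -0.56 (adjusted p = 0.457).

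Of 15 measured corepressors and turnover factors of Snail and Zeb proteins, 2 were lower and 0 higher in luminal cells of intact mice, with a median of 0.18, where 8.45% of all genes were lower and the median was 0.07: the corepressor Ctbp2 (-1.80 ± 0.30) and the ubiquitin ligase subunit Fbxl14 (-1.13 ± 0.26), which targets Snail proteins for degradation. In castrated mice 0 of 15 passed between cell types (median -0.24). After castration 0 of 15 passed in either cell type, with medians of 0.36 in luminal and 0.07 in basal cells.

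Of 19 measured genes commonly read as mesenchymal, 5 were lower and 0 higher in luminal cells of intact mice, with a median of -0.67. The receptor kinase Axl was lower by -5.38 ± 0.70, the adhesion molecule Ncam1 by -2.50 ± 0.36, the membrane protease Mmp14 by -1.62 ± 0.37 and the integrin Itgav by -1.02 ± 0.22. In castrated mice 6 were lower and 2 higher, with a median of -1.51. The fibroblast marker sums given above were higher on basal than on luminal arrays too, and their part was not tested.

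After castration 3 of these 19 genes fell and 2 rose in luminal cells, with a median of -0.98, and 0 passed in basal cells, with a median of -0.44. Ncam1 signals were 1098, 1195 and 1726 on intact and 245, 88.2 and 127 on castrated luminal arrays, a fall of -3.08 ± 0.36 (adjusted p = 7.36e-05). The hyaluronan receptor Cd44 went the other way. Its signals were 901, 566 and 1090 on intact and 5347, 5785 and 6618 on castrated luminal arrays, a rise of 2.82 ± 0.33 (adjusted p = 6.33e-05).

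Of 25 measured junction and polarity genes, 12 were higher and 4 lower in luminal cells of intact mice, with a median of 0.79, and 11 were higher and 1 lower in castrated mice, with a median of 1.17. The claudins Cldn3 and Cldn7 were higher by 3.60 ± 0.52 and 1.52 ± 0.26 and the membrane protease St14 by 1.70 ± 0.24, while the desmosome linker Dsp was lower by -1.20 ± 0.19. Castration raised 4 of the 25 in luminal cells and lowered 0 (median 0.47), among them Dsp by 0.93 ± 0.19 (adjusted p = 0.00599) and the polarity gene Pard6b by 1.20 ± 0.26 (adjusted p = 0.0102). Of 25 alternative fits, 1 lost the Dsp call (adjusted p = 0.137) and 2 lost that of Pard6b (up to 0.0785).

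In basal cells castration raised 2 of these 25 genes and lowered 0, with a median of 0.19. Epcam, whose protein was used for sorting, rose by 0.73 ± 0.14 (adjusted p = 0.0127), from 13122 to 14114 on intact to 20788 to 26161 on castrated basal arrays. The Epcam call held with each array left out in turn but was lost in 3 of 25 alternative fits (adjusted p up to 0.210). Pard6b rose by 1.15 ± 0.26 (adjusted p = 0.0288). The Pard6b call was lost without castrated basal replicates 2 or 3, castrated luminal replicates 1 or 2, or intact basal replicate 3 (adjusted p up to 0.0900).

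Of 10 other cadherins measured, 2 were lower and 0 higher in luminal cells of intact mice, with a median of -0.61, against 8.45% of all genes lower and a median of 0.07. Cdh13, a cadherin anchored by a lipid tail, was lower by -3.84 ± 0.66, with basal signals of 240 to 677 and luminal signals of 3.25 to 44.9. Cdh11, a cadherin of mesenchyme, was lower by -2.53 ± 0.67 (adjusted p = 0.0129), and by -2.02 without intact basal replicate 3 (adjusted p = 0.0600). Cdh11 also counts among the lower genes of the mesenchymal list above. In castrated mice 1 was lower and 0 higher (median -0.30). After castration 0 of 10 passed in either cell type, with medians of -0.06 in luminal and -0.35 in basal cells.

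**Figure D5:**
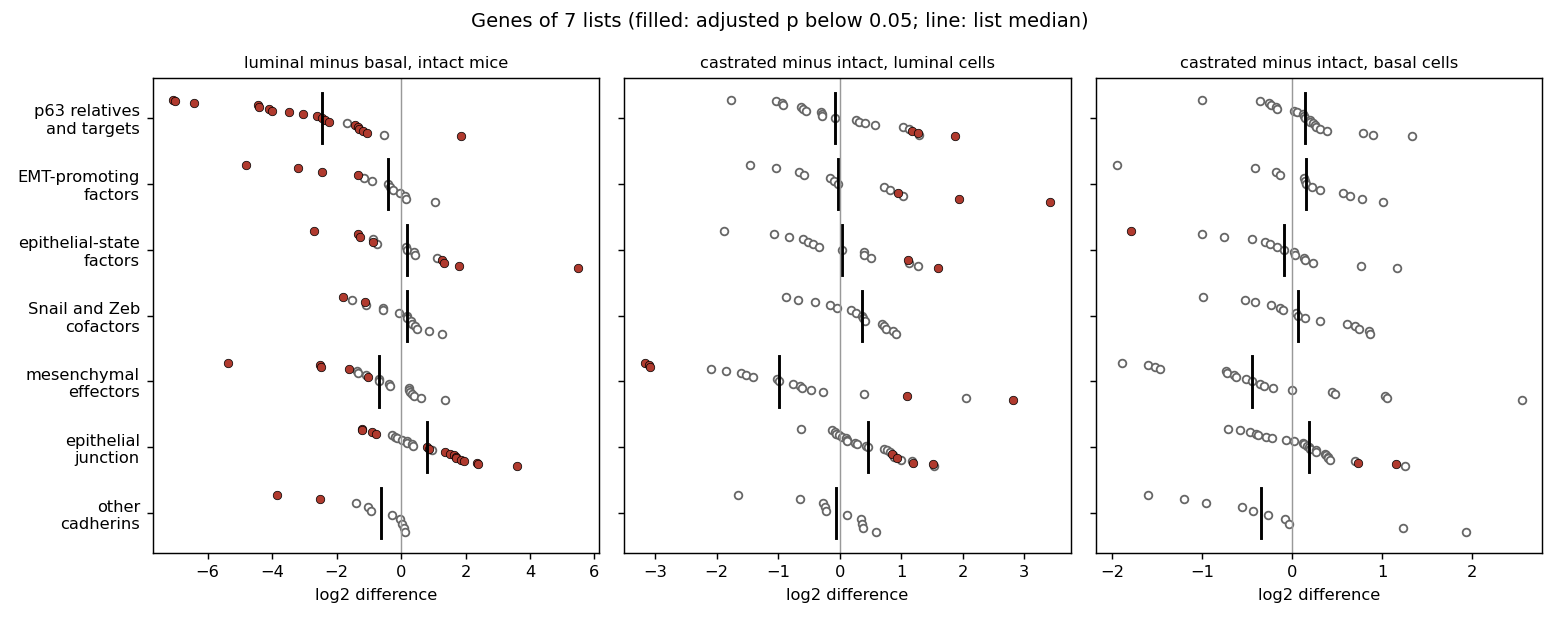
Points are log2 differences of the measured genes of 7 lists in 3 comparisons, filled where the adjusted p was below 0.05, with a vertical bar at each list's median and panels on their own log2 scales. The p63 list lies to the left in luminal against basal cells (median -2.45), and the junction list to the right (median 0.79).

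Patterns over the 12 arrays were compared by Pearson correlation of log2(signal + 16), a description over arrays that share 4 groups, so that cell type alone makes many genes alike. Genes with provisional or clone-type names were left out of the ranking. Among the rest, those most like Trp63 were Pdpn (0.990), Tgif2 (0.990), Jag2 (0.988) and Col4a1 (0.988), and Snai2 followed at rank 39 (0.959). Those most like Snai2 were Dusp7 (0.995), Egr3 (0.993), Fgfr2 (0.992) and Rgs16 (0.986). Cdh1 was most like Csnk1g3 (0.954), Krt6a (0.954), Cxcl2 (0.952) and Gpd2 (0.936), genes with higher mean signals in castrated than in intact mice in both cell types. Vim was most like Plxnd1 (0.930), Arsi (0.912), Tcf21 (0.905) and Cldn22 (0.895), and with Cdh1 its correlation was -0.70.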

How the data were processed

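RNA of sorted cells was isolated with a micro-scale column kit, amplified and hybridised to Affymetrix arrays, per the labels' protocols. The deposited signal intensity was computed by the authors with MAS5, per the submitters' processing notes, and its version is not given in the sources used here. The values are linear, and trimmed array means lay at 500.003 to 500.004, so arrays shared 1 scale by that mean, though not by their medians. Low MAS5 signals are noisy, and detection calls were not used here. Amplification of small RNA amounts adds spread of its own.

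Of 45101 probe sets 64 were controls and were left out. The annotation given assigned 1 symbol to 34945, several to 932 and none to 9160. Entrez identifiers matched the GRCm38.p6 gene table for 34741 of the former. Signals were transformed as log2(signal + 16). A probe set had to exceed its array's 40th percentile on 3 or more arrays, and the brightest such set represented its gene (14645 genes). Fold changes on this scale understate changes of dim genes.

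The 4 group means were fitted over all genes with limma 3.58.1 in R 4.3.3, with an intensity trend and 8 residual degrees of freedom. P-values were adjusted by Benjamini-Hochberg over all genes (threshold 0.05). Errors beside differences are the SE from that fit. Tables were made in Python 3.11.15 with pandas 2.3.3 and numpy 2.4.6, plots with matplotlib 3.10.9, and the fit was tested on simulated data. The 10 genes, the lists and the tests were chosen with earlier results of these data known. All 10 genes are named in every comparison. Of each list, up to 4 genes of lowest adjusted p in luminal against basal (intact) and up to 2 in each castration comparison are named. Satb1 and the marker genes were named after their values were seen. Likeness is given for 4 genes. The number of arrays, 3 per group, limits the precision.

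Per the series' design, castrated animals of 3 replicate sets had paired intact animals. Residuals of same-numbered arrays from different groups correlated across genes at -0.00723 to 0.0258. The replicate number entered only an alternative fit, as a block. Other alternatives were quantile normalization, median centring, 1 or 64 added, no or a stricter filter (60th percentile), a random block, no trend, array weights, 2-group fits, averaging all kept probe sets of a gene, and leaving out each array. Leaving out all arrays of replicate 3 and testing each probe set singly were added after seeing the data.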

Additional observations from a re-analysis of the deposited data

Results flagged for a closer look

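The castration effect differed between luminal and basal cells, by limma's interaction term (adjusted p below 0.05 over all genes), for 5 of the 117 genes tested in the 7 pathway lists and 1 of the 12 fibroblast markers, where 1.15% of all genes passed. For the Zeb1 repressor Ovol1 the difference, luminal minus basal, was 3.40 ± 0.56 (adjusted p = 0.00634), with a rise in luminal and a fall in basal cells. For Ets1 it was 2.79 ± 0.52 (adjusted p = 0.0120), and 2.54 without castrated luminal replicate 3 (adjusted p = 0.0586). For Cd44 it was 2.37 ± 0.46 (adjusted p = 0.0170), and the call was lost without castrated luminal replicates 1, 2 or 3 (adjusted p up to 0.0830). For Itgav it was 1.42 ± 0.31 (adjusted p = 0.0362), with a luminal change of 1.10 and a basal change of -0.32, and it did not pass with the replicate number as a block (adjusted p = 0.0618). For Ncam1 it was -2.34 ± 0.51 (adjusted p = 0.0351). Leaving out 1 array ended the Itgav call in 10 of 12 cases (every array except castrated luminal replicate 1 and intact luminal replicate 1) and the Ncam1 call in 9 of 12 (every array except castrated luminal replicate 1, intact luminal replicate 1 and intact basal replicate 3), with adjusted p up to 0.131 and 0.101. For the fibroblast marker Dcn it was -2.82 ± 0.35 (adjusted p = 0.000873). The mean Dcn signal went from 2753 to 399 on luminal arrays and from 21080 to 22092 on basal arrays. Without an intensity trend the calls of Ovol1, Ets1, Cd44, Itgav and Ncam1 were lost (adjusted p from 0.0522 for Ovol1 to 0.251 for Itgav). With the mean of probe sets those of Itgav, Ncam1 and Dcn were lost (adjusted p = 0.222, 0.668 and 0.316). Without all replicate 3 arrays those of Ovol1, Itgav and Ncam1 were lost (adjusted p = 0.0680, 0.174 and 0.0964). Array weights ended those of Itgav and Ncam1 (adjusted p = 0.0527 and 0.0557), and median centring that of Itgav (adjusted p = 0.114). Of the 9 luminal markers, 1 passed with a positive difference, Pbsn at 3.55 ± 0.62 (adjusted p = 0.00906). Another 2 passed with a negative one, Tgm4 at -2.56 ± 0.60 (adjusted p = 0.0495) and Cd24a at -0.84 ± 0.19 (adjusted p = 0.0387). Alternative fits are not given for these luminal markers. In the basal, smooth muscle, endothelial, myeloid, lymphocyte and nerve marker lists 0 passed. Of the 10 genes described in depth, 0 passed the interaction test.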

How the results depend on the processing

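Without an intensity trend 1 of the 10 genes passed for castration in luminal cells (Trp63), and without all replicate 3 arrays 0 did, with Trp63 at -1.61 (adjusted p = 0.107), Cdh1 at 0.65 (adjusted p = 0.0563) and Vim at -3.44 (adjusted p = 0.0570). For castration in basal cells 1 passed with median centring (Cdh1). Leaving out 1 array gave 1 to 3 genes in luminal cells (1 without intact luminal replicate 3), 0 to 1 in basal cells, and 2 to 3 between cell types in intact and in castrated mice. The interaction stayed at 0. With the replicate number as a block 3, 0, 3, 3 and 0 of the 10 genes passed in the comparisons in their order above (castration in luminal and basal cells, cell types in intact and castrated mice, interaction), and the block changed no call of these genes. It ended the Itgav interaction call (1.42, adjusted p = 0.0618).

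Directions turned only for differences that had not passed, apart from Klf5 in luminal cells after castration (-0.56 with the mean of its probe sets). With that mean, castration differences became -0.37 for Snai2, -0.39 for Zeb1 and -0.14 for Cdh3 in luminal cells, -0.17 for Trp63 in basal cells, and -0.15 for the Bcl11b interaction. With array weights Snai2 in luminal cells was -0.14 and the Cdh3 interaction 0.037. Without all replicate 3 arrays Snai2 in luminal cells was -0.33, the Cdh3 interaction 0.31, the Snai1 interaction -0.37 and Twist1 between cell types in castrated mice 0.19. Leaving out 1 array gave ranges across 0. After castration in luminal cells these were -0.25 to 0.53 for Snai2, -0.92 to 0.089 for Snai1 and -0.22 to 0.62 for Zeb1. Between cell types in intact mice they were -0.37 to 0.38 for Zeb2, -1.18 to 0.28 for Twist1, -0.028 to 0.25 for Cdh1 and -1.19 to 0.20 for Vim. In castrated mice they were -0.61 to 0.24 for Snai1, -0.60 to 0.30 for Zeb2 and -0.57 to 0.17 for Twist1. For the interaction they were -0.028 to 1.01 for Snai1, -0.67 to 0.30 for Zeb2, -0.46 to 0.998 for Twist1, -0.49 to 0.65 for Bcl11b and -0.76 to 0.048 for Cdh3. The cause was not tested.

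Calls of single genes were also lost with 2-group fits (Trp63 in luminal cells after castration, adjusted p = 0.0716; Cdh3 in intact mice, 0.0809), without a trend (Vim, 0.0670; Cdh1, 0.136) and with the mean of probe sets (Cdh3 in intact mice, -1.13, 0.215). Calls were gained for Cdh1 in castrated mice with quantile normalization (0.86, 0.00184) and for Vim there with the mean of probe sets (-1.86, 0.0357). Among other alternatives than leaving out 1 array, 597 of the 10 genes' 620 values kept direction and call, 9 lost a call, 3 gained one and 11 turned direction. Of the 64 counts of genes passed, 61 stayed within 1.5 times and 3 did not. List counts ranged over all settings from 16 to 19 lower p63 genes and 7 to 12 higher junction genes in luminal cells of intact mice, and from 0 to 8 risen junction genes in luminal cells after castration. Signals near the floor limit Snai1, Twist1, Bcl11b, Zeb2 and luminal Trp63 and Snai2.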
